A study of Mus musculus with 8 samples.

Results

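The mitochondrially encoded RNAs are the 37 genes of the mouse mitochondrial genome, taken here as every row whose symbol begins with mt- among the 57180 genes of the deposited table. They comprise 13 protein genes, 2 rRNA genes and 22 tRNA genes. RNA sequencing measured them in Treg (regulatory T) cells, a CD4 lineage known for holding immune responses in check. The cells of different mice were sorted by FACS, a flow cytometry method. The labels give 3 chimera KO and 5 chimera WT libraries of the cell type. They do not name the deleted gene, the strain, the age or the make-up of the chimeras, so KO and WT stand for these labels throughout, and no targeted gene could be checked. The labels do not say whether each library is 1 mouse, so a p-value reflects the scatter of libraries, part of which may be technical. The series title places the study in the copper control of suppression by Treg cells.

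The mitochondrial genome is a small circular DNA whose strands are copied into long precursor RNAs, and many of these are cut apart at the tRNAs that lie between the other genes. Its protein genes encode core subunits of respiratory complexes I, III and IV and of the ATP synthase (complex V), while the other subunits of these complexes, and all of complex II, come from nuclear genes. Copper sits in the catalytic centres of complex IV, in the proteins of mt-Co1 and mt-Co2. The rRNAs and tRNAs serve the ribosomes inside the organelle, which translate these mRNAs alone. Respiration is known to support the suppressive function of Treg cells.

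Part of the mitochondrial genome has copies in nuclear DNA, and these decide how some members can be read. Aligning GENCODE M21 transcripts to the mitochondrial ones found 16 nuclear pseudogenes that matched a mitochondrial gene over at least 100 bases at 90% identity or more, with at least 80% of the transcript aligned. Of these, 7 lie together on chromosome 1 (GRCm38/mm10, positions 24611535 to 24616197). Gm28437 was identical to mt-Co3 over 783 bases, Gm28661 to mt-Co2 over 681, Gm10925 to mt-Atp6 over 678, Gm28439 to mt-Nd4 over 876 and Gm10222 to mt-Nd4l over 294. Gm29216 matched mt-Co1 over 483 bases with 1 substitution, A1066T, and Gm28438 matched mt-Nd3 over 345 bases with 1 substitution, T3C (positions counted from the first base of the mitochondrial gene, whose base is given first). Reads inside the identical stretches cannot be assigned by sequence. The first 40 bases of mt-Co3 (chrM:8607-8646, plus strand), which Gm28437 shares, and the start of mt-Nd3 (chrM:9459-9476, plus strand) above that of Gm28438 (chr1:24613102-24613119, minus strand), with the differing base in capitals, show how little separates gene and copy.
mt-Co3: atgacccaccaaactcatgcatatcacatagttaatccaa
mt-Nd3: atTaacctgtacactgtt
Gm28438: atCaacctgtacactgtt

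Neighbouring genes also share bases within the mitochondrial genome itself. The end of mt-Atp8 is the start of mt-Atp6, and the end of mt-Nd4l is the start of mt-Nd4, as these stretches of the plus strand show (chrM:7907-7989 and chrM:10147-10193), with the shared bases in capitals.
mt-Atp8 and mt-Atp6: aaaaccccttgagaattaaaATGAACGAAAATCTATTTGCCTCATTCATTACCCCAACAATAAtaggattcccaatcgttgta
mt-Nd4l and mt-Nd4: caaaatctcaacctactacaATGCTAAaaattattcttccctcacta
The library kit (SMART-Seq V4) primes on poly(A) tails, which the rRNAs and tRNAs carry less than the mRNAs do. It does not mark strand, so reads of a minus-strand gene and of RNA from the opposite strand are counted alike. The tRNA genes mt-Ts1 (chrM:6870-6938), whose last bases lie opposite the end of mt-Co1, and mt-Tq (chrM:3772-3842) are on the minus strand and held most of the tRNA counts, and are printed on their own strand for that reason.
mt-Ts1: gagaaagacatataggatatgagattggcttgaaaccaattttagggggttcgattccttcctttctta
mt-Tq: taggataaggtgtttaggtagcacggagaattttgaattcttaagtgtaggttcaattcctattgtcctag

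The libraries differed in depth and make-up. Total counts were 4.31 to 8.48 M in KO and 10.5 to 18.0 M in WT libraries (M for mega). Genes with at least 10 counts numbered 12491 to 14318 in KO libraries and 12758 to 14090 in WT replicates 1 to 3, but 8250 in WT replicate 4 and 9484 in WT replicate 5. Foxp3, the factor that defines Treg cells, had 26.6, 2.69 and 24.2 normalised CPM (CPM on the TMM-scaled library size, TMM being edgeR's scaling between libraries) in KO replicates 1 to 3, and 11.9, 36.6, 41.9, 3.13 and 1.25 in WT replicates 1 to 5. The 7 Treg markers summed to 786 to 2825 normalised CPM in KO and 2822 to 6281 in WT libraries. Of these markers, Ikzf2 had 419 to 1664 in KO libraries, 81.1 in WT replicate 4 and 1089 to 4633 in the other WT libraries. In WT replicate 4 Cd3e (1386), Tnfrsf18 (1356) and Ctla4 (934) carried the sum of 4317. The 5 myeloid markers summed to 4.11 to 23.2 in KO and 0.141 to 60.1 in WT libraries. Markers of other cells were high in WT replicates 4 and 5. The 5 B cell markers summed to 3108 normalised CPM in WT replicate 4 and to 78.2 to 554 elsewhere, and the 5 markers of NK and CD8 T cells to 2357 and to at most 119 elsewhere. In WT replicate 4 Nkg7 carried the NK and CD8 sum, and Ncr1 was at 0 in all 8 libraries. The 5 erythroid markers summed to 9102 in WT replicate 5 and to at most 22.2 elsewhere. Those libraries also had the highest mitochondrial shares, as follows, and the part of these other cells in the results was not tested.

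Mitochondrially encoded genes held 3.55, 2.16 and 1.80% of all counts in KO replicates 1 to 3, and 2.65, 3.03, 3.57, 6.85 and 5.44% in WT replicates 1 to 5. The groups overlapped, since KO replicate 1 lay among WT replicates 1 to 3. The means were 2.51 ± 0.924% in KO and 4.31 ± 1.78% in WT libraries (SD, n = 3 and n = 5; exact two-sided permutation p = 0.161, adjusted p = 0.207 over the 9 measures of shares and ratios tested). The difference was −1.81 percentage points, and −0.58 points without WT replicates 4 and 5 (WT mean 3.09%, exact permutation p = 0.4). With 3 and 5 libraries, this exact test cannot give a p below 0.0179. In bulk RNA, fewer cells of a type and less RNA per cell cannot be told apart.

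**Figure D1:**
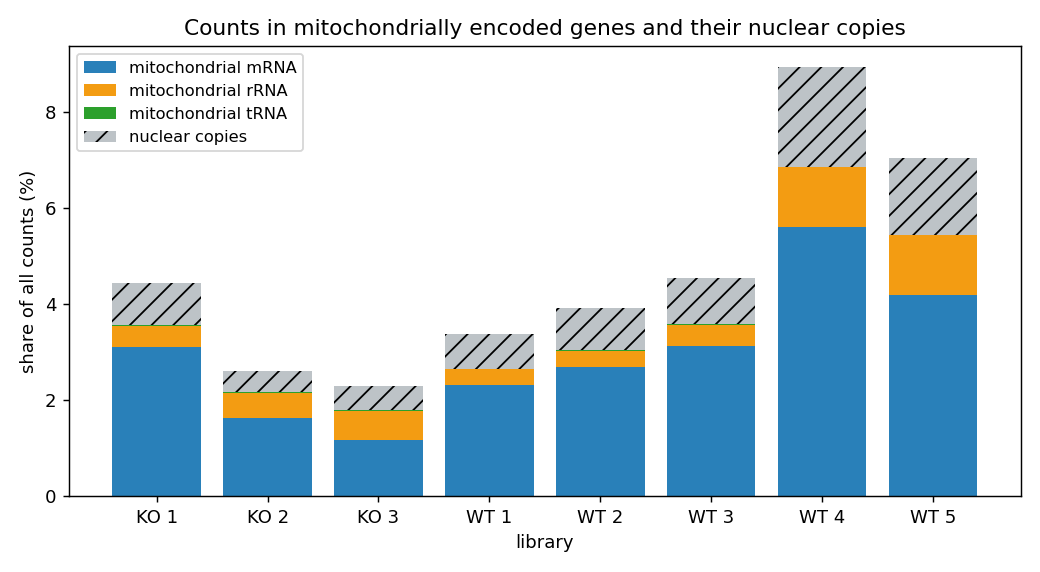
Share of all counts (%) held by mitochondrial mRNA, rRNA and tRNA genes and, hatched, by their 16 nuclear copies, in each KO and WT library. The tallest bars are WT replicates 4 and 5, with 6.85 and 5.44% in mitochondrially encoded genes, and the lowest is KO replicate 3 with 1.80%.

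The division of these counts by class also varied between libraries. The mRNA genes held 87.3, 74.8 and 64.8% of the mitochondrially encoded counts in KO replicates 1 to 3, against 87.1, 88.3, 87.7, 81.9 and 76.7% in WT replicates 1 to 5. The rRNA genes held 12.5, 24.2 and 34.0% in KO and 12.4, 11.3, 11.9, 18.0 and 23.2% in WT libraries. KO replicate 1 thus stood with WT replicates 1 to 3. KO replicates 2 and 3, the libraries of least depth, held more rRNA. So did WT replicate 4, the library of most depth, and WT replicate 5. The mean rRNA share was 23.6 ± 10.8% in KO and 15.4 ± 5.12% in WT libraries (SD, n = 3 and n = 5; exact permutation p = 0.143, adjusted p = 0.207). The difference of 8.19 points was 2.98 points without KO replicate 3, 13.7 without KO replicate 1 and 11.7 without WT replicates 4 and 5. The tRNA genes held 0.281, 0.953 and 1.21% in KO and 0.566, 0.372, 0.415, 0.115 and 0.0766% in WT libraries, which overlapped as well (exact permutation p = 0.0893, adjusted p = 0.207).

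Gene by gene, 21 of the 37 members passed the filter on low counts and were tested among 14755 genes: 12 of 13 protein genes, both rRNA genes and 7 of 22 tRNA genes. The change is given as log2 of KO over WT. By edgeR's quasi-likelihood test 0 members passed an adjusted p of 0.05, as did 0.0% of all genes. At an unadjusted p under 0.05, 8 members were lower in KO libraries, all of them mRNAs, against 6.43% of all genes tested. DESeq2, run as an alternative, called 8 members lower and 0 higher, against 10.0% and 6.4% of all genes. On TMM-scaled values the groups did not overlap, with KO below WT, for 4 members, against 4.49% of all genes. TMM factors were 1.32 to 1.49 in KO libraries and 1.08 to 1.15 in WT replicates 1 to 3. They were 0.400 and 0.689 in WT replicates 4 and 5. Of the 4, mt-Nd1, mt-Nd2 and mt-Co2 overlapped on total counts. KO replicate 1 had 19187, 17419 and 22964 of their counts in 8.48 M. WT replicate 1 had 20869 of mt-Nd1 and 24480 of mt-Co2 in 10.6 M, and WT replicate 4 had 31720 of mt-Nd2 in 18.0 M. Negative log2 changes were found for 19 members, against 56.8% of all genes.

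The 12 protein genes tested had log2 changes from −2.64 to −0.74 with a median of −1.89, where the median over all genes was −0.42. All 12 were negative under TMM scaling and under DESeq2's size factors, and 11 on total counts alone, mt-Nd3 being the exception at 0.24. On total counts 16 of the 21 members were negative, against 45.3% of all genes, and 2 were lower at an unadjusted p under 0.05, against 2.53%. The level of the scaling moved all genes: the median over all genes was −0.72 with DESeq2's size factors and 0.21 on total counts. Relative to it, the mRNA median was −1.47 with TMM, −1.78 with DESeq2's size factors and −1.05 on total counts. The mRNA median was −0.73 without WT replicates 4 and 5. Relative to the median over all genes in that fit (−0.15), it was −0.58. In that fit 18 of 21 members were negative, against 53.5% of all genes, and 4 members were lower at an unadjusted p under 0.05, against 6.36% of all genes. Leaving out KO replicate 2 left 2 of 22 members at an unadjusted p under 0.05 in either direction, against 6.57% of all genes, and leaving out KO replicate 3 left 2 of 23, against 5.84%. With all libraries that share was 14.4%. With the replicate number as a block 1 of 21 had such a p, against 9.02%. WT replicates 4 and 5 have no KO library of the same number, so under this block they do not inform the change.

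Complex I, which takes electrons from NADH, has 7 subunits encoded here. mt-Nd5 (chrM:11742-13565) had 445, 226 and 103 normalised CPM in KO replicates 1 to 3 and 577, 656, 971, 3431 and 2384 in WT replicates 1 to 5. Each KO library lay below each WT library, and the log2 change was −2.64 (SE 0.83, edgeR adjusted p = 0.325, DESeq2 adjusted p = 0.00576). Its log2 change stayed at −1.51 without WT replicates 4 and 5.

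mt-Nd2 (chrM:3914-4951) had 1524, 996 and 684 normalised CPM in KO libraries and 1916, 2541, 3141, 4456 and 2923 in WT libraries, without overlap on this scaling (log2 change −1.49, SE 0.47, edgeR adjusted p = 0.325). It had the smallest SE of the members tested, and its log2 change was −1.24 without WT replicates 4 and 5. mt-Nd1 (chrM:2751-3707) had 1678, 1119 and 1160 in KO and 1732, 2225, 2490, 10470 and 6370 in WT libraries, with KO replicate 1 just below WT replicate 1 on this scaling (log2 change −1.82, SE 0.68, edgeR adjusted p = 0.325). It was −0.69 without WT replicates 4 and 5.

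For mt-Nd4 (chrM:10167-11544) the values were 1125, 677 and 604 in KO and 1109, 1458, 1984, 7734 and 3262 in WT libraries (log2 change −1.95, SE 0.71, edgeR adjusted p = 0.325). KO replicate 1 lay above WT replicate 1, and the other KO libraries lay below all WT libraries. Its log2 change was −0.92 without WT replicates 4 and 5. mt-Nd3 had 148, 178 and 112 in KO and 178, 91.9, 192, 583 and 174 in WT libraries, so the groups were mixed apart from WT replicate 4 (log2 change −0.74, SE 0.71, edgeR adjusted p = 0.575). mt-Nd6 (chrM:13552-14070) is the only protein gene on the minus strand. It had 334, 272 and 158 in KO and 287, 275, 581, 1508 and 923 in WT libraries, with overlap in KO replicate 1 (log2 change −1.49, SE 0.71, edgeR adjusted p = 0.357). Without those WT libraries the log2 changes of mt-Nd3 and mt-Nd6 were −0.05 and −0.57. mt-Nd4l had 0 counts in 7 libraries and 34.0 counts in WT replicate 1, so it was not tested. A count of 0 allows up to 3 counts, for counting error only, which leaves out reads assigned to a copy. Its copy Gm10222, identical over 294 bases, had 36 to 828 counts per library. The 0 counts of mt-Nd4l thus do not bound its level. With all copies added to the gene each matches, its log2 change was −1.52 (SE 1.03, edgeR adjusted p = 0.454).

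Complex III passes electrons to cytochrome c, and its sole mitochondrially encoded subunit is cytochrome b. Its gene, mt-Cytb (chrM:14145-15288), had 3186, 891 and 816 normalised CPM in KO and 2368, 3593, 3364, 19546 and 10428 in WT libraries. KO replicates 2 and 3 lay below every WT library and KO replicate 1 among WT replicates 1 to 3 (log2 change −2.27, SE 0.86, edgeR adjusted p = 0.325, DESeq2 adjusted p = 0.0245). The log2 change was −0.95 without WT replicates 4 and 5.

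Complex IV reduces oxygen. mt-Co1 (chrM:5328-6872), the catalytic subunit that holds haem and copper, had 3372, 908 and 867 normalised CPM in KO and 2776, 4765, 3528, 28541 and 9076 in WT libraries (log2 change −2.50, SE 0.92, edgeR adjusted p = 0.325). KO replicate 1 lay above WT replicate 1. mt-Co2 (chrM:7013-7696), which receives electrons from cytochrome c at its copper centre, had 2009, 1431 and 1073 in KO and 2031, 2164, 3083, 19867 and 7999 in WT libraries, with no overlap on TMM-scaled values (log2 change −2.22, SE 0.84, edgeR adjusted p = 0.325). The gap between KO replicate 1 and WT replicate 1 was small beside the spread within either group.

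mt-Co3 (chrM:8607-9390), a core subunit without metal, had 697, 468 and 92.6 normalised CPM in KO and 797, 384, 806, 7026 and 1948 in WT libraries as deposited (log2 change −2.39, SE 1.08, edgeR adjusted p = 0.348). Most counts of that sequence were in its copy: Gm28437 held 80.3 to 95.5% of the counts of gene and copy together in KO libraries and 83.1 to 94.3% in WT libraries. With all copies added to the gene each matches, the log2 change of mt-Co3 was −2.34 with an SE of 0.77 (edgeR adjusted p = 0.324). In that fit 20 of 22 members were negative, against 56.7% of all genes, and 9 were lower at an unadjusted p under 0.05, against 6.45%. The log2 changes without WT replicates 4 and 5 were −1.12 for mt-Co1, −0.68 for mt-Co2 and −0.65 for mt-Co3 as deposited.

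Complex V makes ATP. mt-Atp6 (chrM:7927-8607), the subunit of the proton channel, had 8042, 3732 and 3212 normalised CPM in KO and 6141, 6261, 8816, 37490 and 15607 in WT libraries (log2 change −1.57, SE 0.70, edgeR adjusted p = 0.346). KO replicate 1 stood above WT replicates 1 and 2, and the log2 change was −0.50 without WT replicates 4 and 5 and −0.88 without WT replicate 4 alone. mt-Atp8 (chrM:7766-7969), the small membrane subunit encoded on the same mRNA, had 427, 152 and 134 in KO and 376, 358, 469, 1057 and 357 in WT libraries (log2 change −1.14, SE 0.66, edgeR adjusted p = 0.399). Here too KO replicate 1 was among the WT libraries and KO replicates 2 and 3 were below them, and the log2 change was −0.71 without WT replicate 4.

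**Figure D2:**
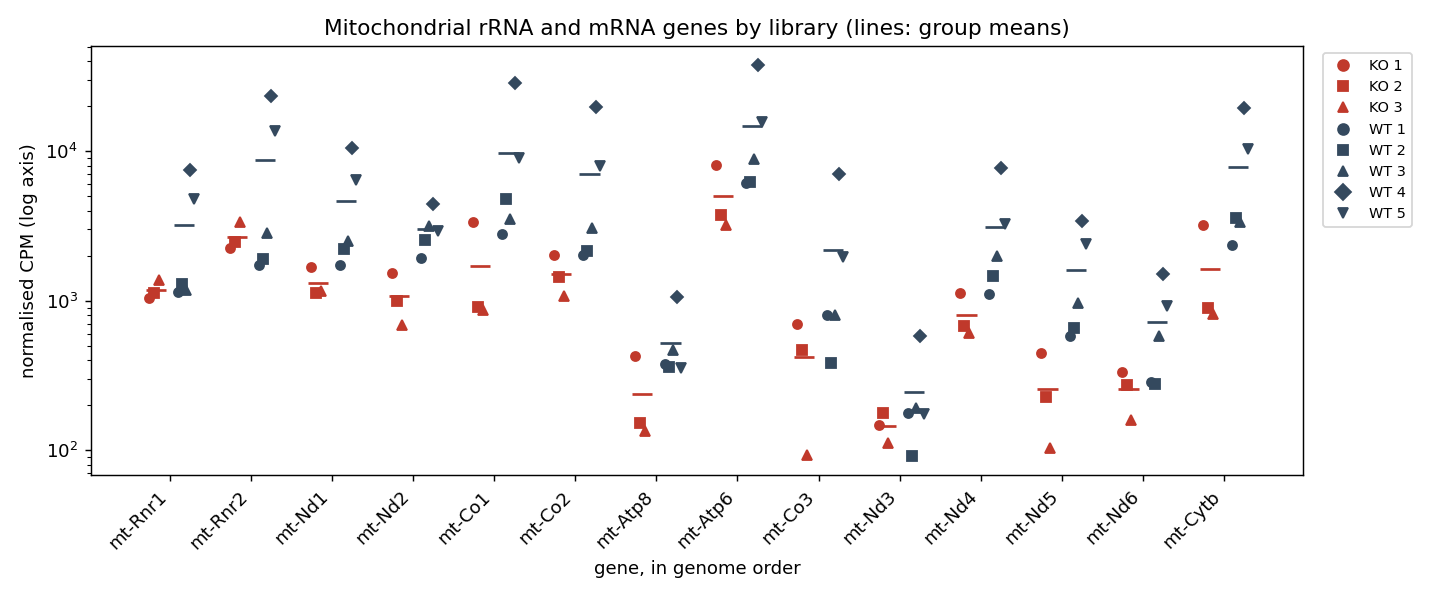
Normalised CPM (log axis) of the mitochondrial rRNA genes and of 12 protein genes, in genome order, for KO libraries (left of each pair) and WT libraries, with lines at the group means. WT replicates 4 and 5 lie highest for most genes, and KO replicate 1 lies close to WT replicates 1 to 3.

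The rRNA genes encode the RNA cores of the small and large subunits of the mitochondrial ribosome. mt-Rnr1 (12S, chrM:70-1024) had 1035, 1119 and 1372 normalised CPM in KO libraries and 1150, 1288, 1182, 7506 and 4815 in WT libraries. mt-Rnr2 (16S, chrM:1094-2675) had 2245, 2462 and 3354 in KO and 1734, 1896, 2822, 23594 and 13761 in WT libraries. For mt-Rnr1, KO replicates 1 and 2 lay just below and KO replicate 3 just above WT replicates 1 to 3, and for mt-Rnr2 KO replicates 1 and 2 lay among them and KO replicate 3 above. WT replicates 4 and 5 lay far above all others in both genes. The log2 changes were −1.44 (SE 0.74) and −1.71 (SE 0.92), with edgeR adjusted p of 0.375 and 0.385. They were −0.01 and 0.34 without WT replicates 4 and 5, so the sign of the mt-Rnr2 change turned.

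The tRNA genes, of 59 to 75 bases, were sparsely counted. The 8 on the minus strand held 97.2 to 99.3% of tRNA counts in KO and 97.5 to 98.8% in WT libraries, and the 14 on the plus strand reached at most 16 counts in any library. mt-Ts1 (tRNA of serine) and mt-Tq (tRNA of glutamine), printed above, together held 86.7 to 90.9% of tRNA counts in KO and 77.8 to 84.9% in WT libraries.

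mt-Ts1 had 36.5, 82.8 and 104.5 normalised CPM in KO and 34.6, 28.0, 42.2, 143.6 and 40.7 in WT libraries. KO replicates 2 and 3 lay above all WT libraries but replicate 4. Its log2 change was 0.37 (SE 0.85, edgeR adjusted p = 0.823) with TMM, 1.36 on total counts and −0.21 with DESeq2's size factors, so its direction depended on the scaling. mt-Tq had 27.6, 40.7 and 48.3 in KO and 71.3, 60.7, 66.2, 19.9 and 9.90 in WT libraries, with WT replicates 1 to 3 above and WT replicates 4 and 5 below every KO library (log2 change −0.23, SE 0.94, edgeR adjusted p = 0.905, and 0.20 on total counts). In WT replicates 4 and 5, where most of the mRNAs were highest, mt-Tq was lowest. The other 5 tested tRNA genes, mt-Ta, mt-Tc, mt-Td, mt-Te and mt-Tp, had means of at most 8.48 normalised CPM in either group and edgeR adjusted p from 0.479 to 0.868. The remaining 15 tRNA genes had at most 19 counts in any library.

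**Figure D3:**
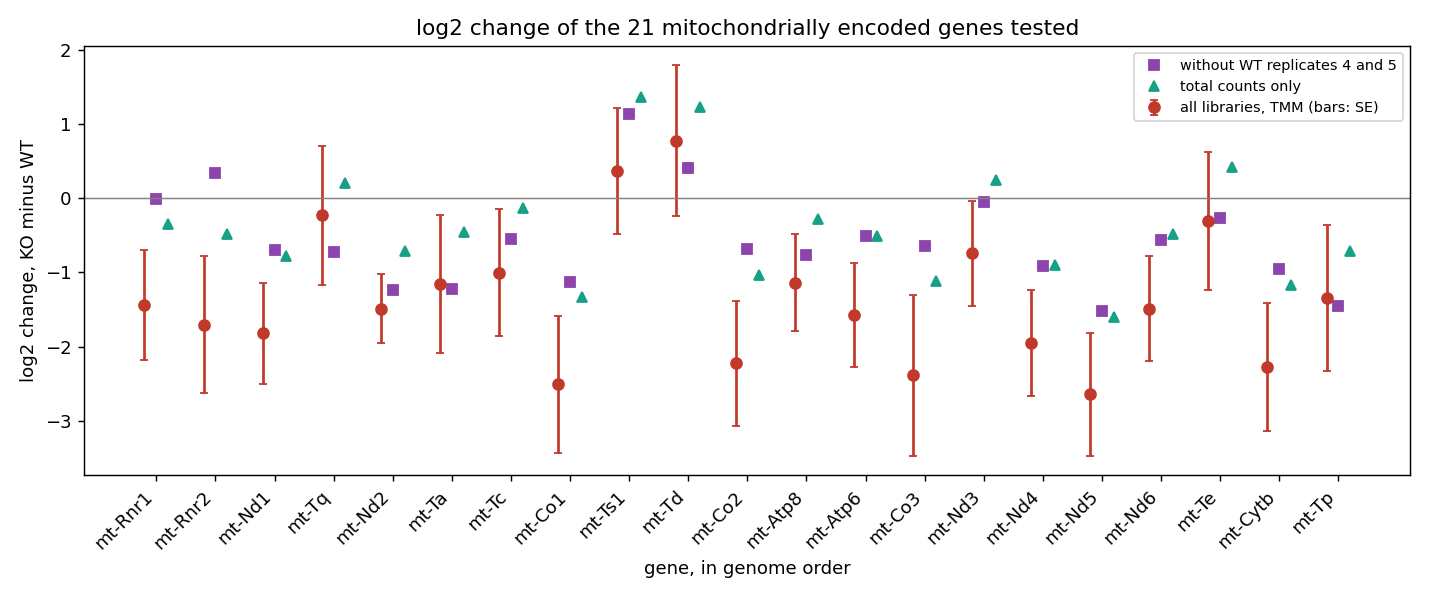
The log2 change, KO minus WT, of the 21 mitochondrially encoded genes tested with all libraries and TMM scaling (bars are standard errors), without WT replicates 4 and 5, and on total counts only. The mRNA changes are nearer 0 in both alternatives, with mt-Nd5 the lowest at −2.64, −1.51 and −1.60.

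Levels of different genes were compared per kb of the deposited gene length. As deposited, the highest mean over the 8 libraries was that of mt-Atp6, at 7335 ± 3893 normalised CPM per kb in KO and 21825 ± 19414 in WT libraries (SD, n = 3 and n = 5). mt-Co2 came next, at 2199 ± 690 in KO and 10276 ± 11085 in WT libraries, then mt-Cytb at 1426 ± 1178 and 6871 ± 6360. mt-Nd3 stood at 419 ± 94.3 in KO and 700 ± 556 in WT libraries, and mt-Nd5 at 141 ± 94.9 and 879 ± 688. The SDs hold differences between libraries that the genes share, so neighbours in the order were set side by side within each library. mt-Atp6 was above mt-Co2 in 8 of 8 libraries, by 1.90 to 4.02 times, and mt-Nd6 above mt-Nd5 in 8 of 8, by 1.36 to 5.40 times. mt-Co2 was above mt-Cytb in 8 of 8 libraries too, with nearly equal values in WT replicate 2 (3163 and 3141). Between mt-Cytb and mt-Nd6 each neighbour was the higher one in 4 to 7 of 8 libraries, and mt-Nd5 was above mt-Nd3 in 3 of 8, so those places in the order were not the same in every library.

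Adding the counts of the copies changed that order. mt-Co3 moved from place 10 to place 2 of the 15 genes, at 4064 ± 2129 normalised CPM per kb in KO and 20551 ± 19452 in WT libraries, against 535 ± 389 and 2796 ± 3526 as deposited. mt-Co1 went to 2002 ± 1031 in KO and 9846 ± 11204 in WT libraries, against 1111 ± 929 and 6302 ± 6984 as deposited. mt-Nd4l, read almost wholly into Gm10222, went to 58.8 ± 32.3 in KO and 168 ± 131 in WT libraries. Gm28439, identical to 876 of the 1378 bases of mt-Nd4, had 0 counts in all 8 libraries. Gm28437 is identical to 783 of the 784 bases of mt-Co3, so the pairs are not alike in what they share. Gm28661 is identical to 681 of the 684 bases of mt-Co2, and Gm10925 to 678 of the 681 of mt-Atp6. Those copies held 1.42 and 0.497% of the counts of their pairs over all libraries. What sets these shares was not tested.

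**Figure D4:**
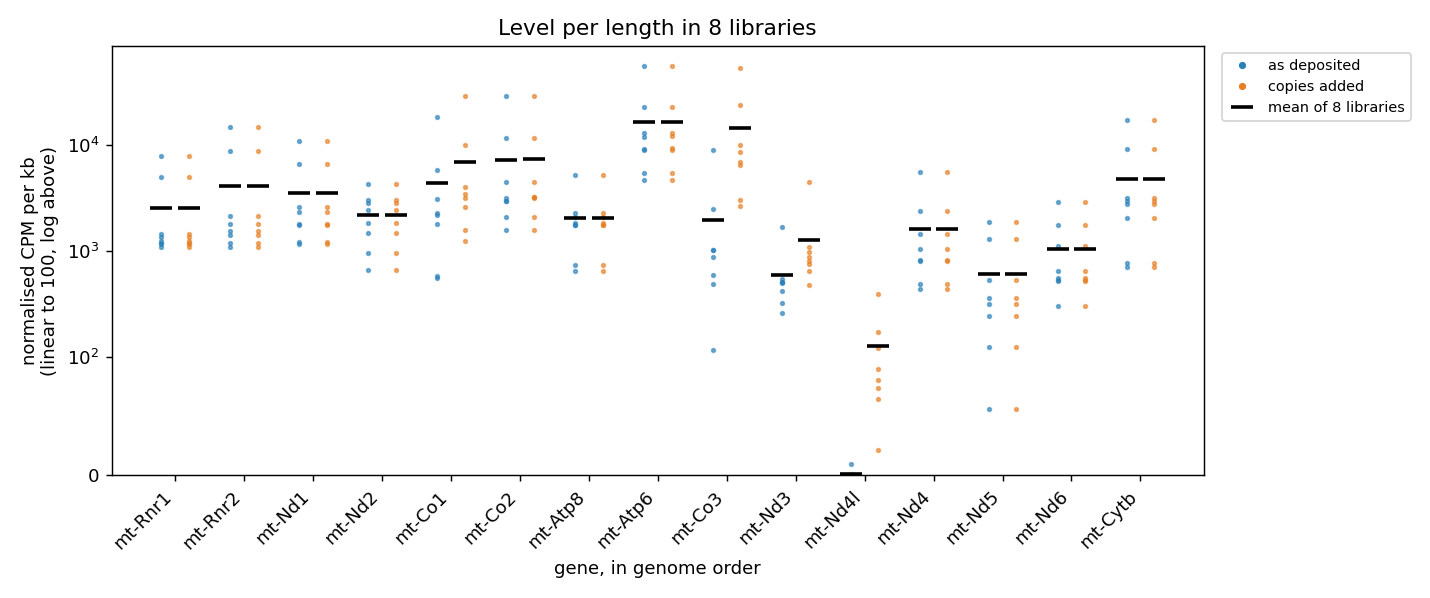
Normalised CPM per kb of gene length (axis linear to 100 and logarithmic above) for the rRNA and protein genes in genome order, as deposited and with the counts of nuclear copies added. Dots are the 8 libraries and dashes their means, and mt-Co3 and mt-Nd4l move most when copies are added.

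Shares within the mitochondrial mRNA counts do not depend on library scaling. As deposited they do depend on how reads were divided between the genes and their nuclear copies, which differed between libraries. Complex V held 36.8, 35.1 and 37.1% of these counts in KO replicates 1 to 3, against 32.1, 26.7, 31.6, 27.2 and 26.0% in WT replicates 1 to 5. Each KO library was above each WT library, with means of 36.4 ± 1.07% and 28.7 ± 2.89% (SD, n = 3 and n = 5; exact permutation p = 0.0357, adjusted p = 0.207). Complex IV held 24.8 ± 2.01% in KO and 30.5 ± 5.29% in WT libraries, complex III 10.3 ± 3.10% and 13.7 ± 2.27%, and complex I 28.5 ± 4.90% and 27.1 ± 4.53% (exact permutation p = 0.125, 0.125 and 0.732). With the copies added, complex IV held 42.0 ± 1.81% in KO and 47.4 ± 5.08% in WT libraries, and complex V 27.7 ± 1.53% and 21.6 ± 2.58% (SD, n = 3 and n = 5; exact permutation p = 0.107 and 0.0357, adjusted p = 0.184 each). Complex IV, not complex V, then held the most counts in KO libraries. The WT mean of the complex V share as deposited was 30.1% without WT replicates 4 and 5.

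Among the 13 genes, mt-Atp6 and mt-Nd5 had shares that did not overlap. mt-Atp6 held 35.0, 33.8 and 35.6% in KO and 30.3, 25.3, 30.0, 26.5 and 25.4% in WT libraries, a difference of 7.32 percentage points (exact permutation p = 0.0179, adjusted p = 0.116 over 13 genes). mt-Nd5 held 1.93, 2.04 and 1.14% in KO and 2.84, 2.65, 3.30, 2.42 and 3.88% in WT libraries, a difference of −1.31 points (exact permutation p = 0.0179, adjusted p = 0.116). Neither passed the adjustment, and neither could have. With only these genes at the smallest p of this exact test, 0.0179, the adjusted p over 13 genes cannot be below 0.116. The adjusted p of the other 11 genes were between 0.31 and 1.

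With the copies added, an alternative chosen for these shares after the data were seen, the share of mt-Co3 was larger and more even between libraries. It held 17.3, 16.9 and 16.3% of mitochondrial mRNA counts in KO replicates 1 to 3, against 20.6, 20.7, 20.3, 21.5 and 22.2% in WT replicates 1 to 5. As deposited the same gene held 3.03, 4.23 and 1.03% in KO and 3.93, 1.55, 2.74, 4.96 and 3.17% in WT libraries. The groups were separate only with the copies, by −4.23 percentage points (exact permutation p = 0.0179, adjusted p = 0.116), against −0.51 points as deposited (exact permutation p = 0.625, adjusted p = 0.903). mt-Nd3 likewise no longer overlapped, with 1.16, 1.98 and 2.06% in KO and 1.15, 0.505, 0.995, 0.804 and 0.268% in WT libraries, KO replicate 1 and WT replicate 1 being nearly equal (exact permutation p = 0.0179, adjusted p = 0.116). mt-Atp6 and mt-Nd5 stayed separate, at 26.5 ± 1.33% in KO and 20.7 ± 2.19% in WT libraries, and 1.31 ± 0.435% and 2.25 ± 0.416% (SD, n = 3 and n = 5; exact permutation p = 0.0357 each, adjusted p = 0.116). For mt-Co1 the difference was −5.13 points as deposited and −1.34 with the copies (exact permutation p = 0.107 and 0.643), with overlap in both.

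**Figure D5:**
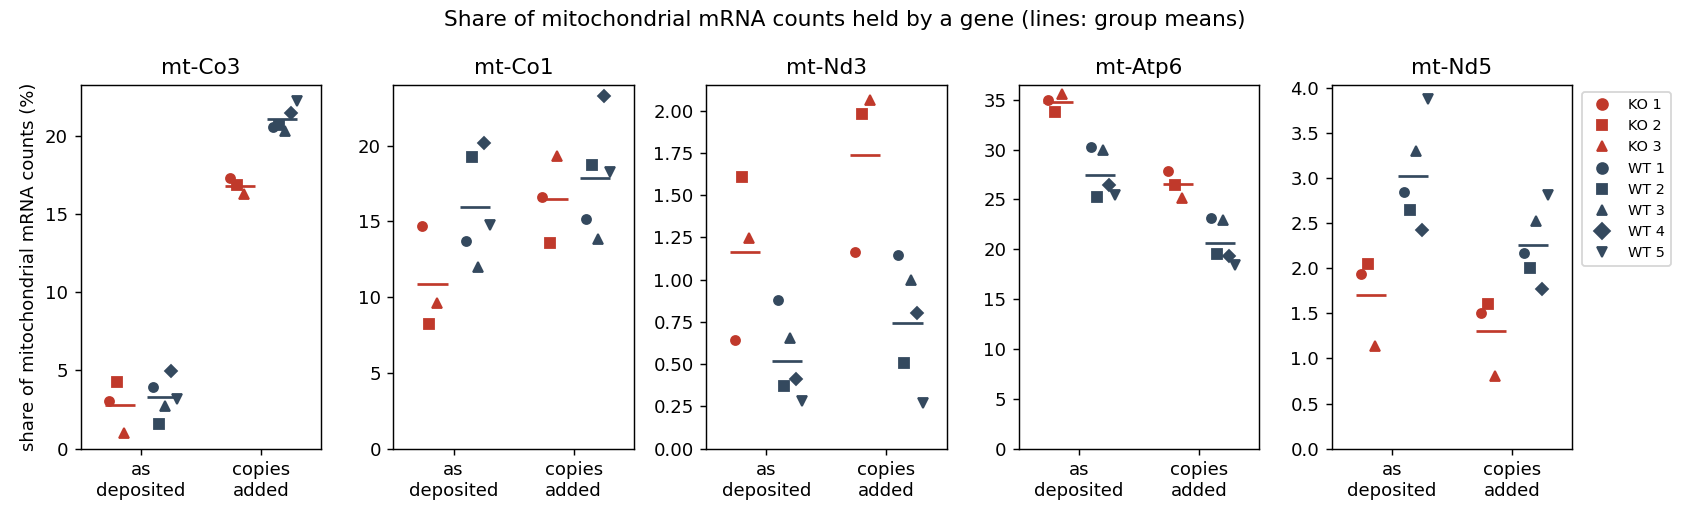
Share of mitochondrial mRNA counts (%) held by mt-Co3, mt-Co1, mt-Nd3, mt-Atp6 and mt-Nd5, as deposited and with nuclear copies added, for KO libraries (left of each pair) and WT libraries, with lines at the group means. mt-Co3 lies between 1.03 and 4.96% as deposited and, with its copy, between 16.3 and 17.3% in KO and between 20.3 and 22.2% in WT libraries.

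The nuclear-encoded subunits of the same complexes had log2 changes of similar size. Medians were −2.05 for complex I (37 of 37 negative), −1.83 for complex III (8 of 9), −2.10 for complex IV (10 of 10) and −2.24 for complex V (14 of 14), with 0 members past edgeR's adjusted threshold in any list, where 56.8% of all genes were negative. DESeq2 called 16, 4, 7 and 8 of them lower and 0 higher, against 10.0% and 6.4% of all genes. Without WT replicates 4 and 5 these medians were −0.59, −0.52, −0.53 and −0.79. The ratio of mitochondrial mRNA counts to counts of these nuclear subunits was 3.31, 1.56 and 1.22 in KO replicates 1 to 3 and 2.12, 2.68, 2.55, 2.07 and 1.85 in WT replicates 1 to 5. KO replicate 1 had the highest ratio of all libraries and the other KO libraries the lowest (means 2.03 ± 1.12 in KO and 2.25 ± 0.351 in WT libraries, SD, n = 3 and n = 5; exact permutation p = 0.696, adjusted p = 0.732).

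Among the most abundant of these subunits, Cox7a2 of complex IV had 170 ± 50.3 normalised CPM in KO and 776 ± 726 in WT libraries (log2 change −2.19, edgeR adjusted p = 0.325). Cox6c, also of complex IV, had 332 ± 118 in KO and 1075 ± 981 in WT libraries. Of complex I, Ndufa1 had 154 ± 39.4 and 728 ± 623, and the iron-sulfur subunit Ndufv2 70.9 ± 61.4 and 695 ± 1017. Of complex III, Uqcrb had 230 ± 60.0 and 773 ± 634, and Uqcrh 151 ± 54.1 and 654 ± 796. The ATP synthase subunits Atp5mg and Atp5pf had 300.1 ± 55.3 and 228 ± 22.4 in KO libraries, and 1187 ± 1130 and 1201 ± 1270 in WT libraries. The log2 changes of these 8 genes lay between −3.29 and −1.69 and none passed by edgeR (SD, n = 3 KO and n = 5 WT libraries for each gene).

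The nuclear genes that copy, transcribe and process mitochondrial DNA and RNA were covered by 6 lists, and by edgeR 0 members passed in any of them. Their counts of negative log2 changes stand beside 56.8% of all genes. For maintenance of mitochondrial DNA the log2 change was negative in 8 of 10 tested genes (median −0.82). Ssbp1, the single-strand binding protein, had 123 ± 44.1 normalised CPM in KO and 389 ± 310 in WT libraries, and Rrm2b, a subunit of ribonucleotide reductase, 144 ± 27.1 and 139 ± 77.6. For transcription 6 of 7 were negative (median −1.88, and 0.15 without WT replicates 4 and 5). Mterf3, a regulator of the mitochondrial ribosome and of transcription, had 182 ± 43.8 in KO and 118 ± 120 in WT libraries, and the terminator Mterf1a 22.7 ± 20.9 and 190 ± 241. For nuclear regulators 6 of 8 were negative (median −1.76), with Gabpa, the DNA-binding part of nuclear respiratory factor GABP, at 14.6 ± 11.3 and 114 ± 89.1 and Gabpb2 at 58.2 ± 42.2 and 48.8 ± 51.9.

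RNA processing genes had 9 of 13 negative log2 changes (median −1.71, and −1.07 without WT replicates 4 and 5). Angel2 had 399 ± 97.4 normalised CPM in KO and 149 ± 45.2 in WT libraries, with 336, 511 and 350 in KO replicates 1 to 3 and 151, 218, 110, 107 and 161 in WT replicates 1 to 5. Every KO library was above every WT library, where 13.2% of all genes had that pattern (log2 change 1.42, SE 0.51, edgeR adjusted p = 0.325, DESeq2 adjusted p = 0.0453). Fastkd2, which binds mitochondrial rRNA and ND6 mRNA in human cells, had 10.5 ± 14.7 in KO and 164 ± 246 in WT libraries. In RNA stability and decay 5 of 7 were negative (median −0.47, and 0.36 without WT replicates 4 and 5, a turn of direction), with the oligoribonuclease Rexo2 at 40.8 ± 25.0 and 219 ± 179 and Slirp, the partner of the mRNA-stabilising protein Lrpprc, at 93.0 ± 58.3 and 182 ± 155. In tRNA and rRNA modification 10 of 15 were negative (median −0.68, and −1.18 without those libraries), with Alkbh1 at 37.4 ± 9.01 and 90.9 ± 36.0 and Trnt1, which adds the CCA end to tRNAs, at 10.4 ± 15.9 and 87.2 ± 118. DESeq2 called 2 and 1 genes of the first list lower and higher, 1 lower in each of the other 5 lists, and 1 higher each among regulators and processing genes, where 10.0% of all genes were called lower and 6.4% higher.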

How the data were processed

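The authors deposited 1 table of expected counts per gene (estimated counts, not whole numbers) for the 8 libraries. Per the submitters' processing notes the tools were fastp, HISAT2, StringTie, RSEM and DESeq2, with build mm10; versions and settings are not given in the sources used here. RNA was extracted with TRIzol and libraries were made with the SMART-Seq V4 kit, per the labels' protocols. Columns holding the authors' group means were not used, and 0 columns belonged to other samples.

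Expected counts were rounded to whole numbers and fitted for all genes with edgeR 4.0.16 in R 4.3.3 (filterByExpr with a minimum count of 10, TMM, quasi-likelihood test, two-sided, Benjamini-Hochberg, threshold 0.05). DESeq2 1.42.0 was an alternative. Shares were compared by the exact two-sided permutation test of the difference of means. Copies of mitochondrial genes were found with blastn 2.17.0 among GENCODE M21 transcripts (GRCm38), which also gave coordinates and printed sequences; all 37 members matched. Levels per kb used gene length. Totals of 4.31 to 18.0 M counts per library set the precision, and intervals for counting error are not given because libraries varied far more.

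Every member is named or counted; from each nuclear list the members past the threshold, or else the 2 with the highest mean, are named, and copies with a mean of at least 100 counts. Members and lists were chosen with earlier results of these data known. The fits were tested on simulated data. Other scalings, filters, denominators, added copies, a replicate block and left-out libraries were tried.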

Additional observations from a re-analysis of the deposited data

Results flagged for a closer look

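The WT values of 43 genes and measures were examined, KO having too few libraries, and 7 had 1 library far from the rest. Chance gives about 1 in 20 for each item, but all but 1 of the 7 fell on WT replicate 4. These items are not independent, so their number cannot be set against that rate. WT replicate 4 stood far above the other WT libraries in normalised CPM for mt-Co1 (28541, next 9076), mt-Co3 (7026, next 1948), mt-Atp8 (1057, next 469), mt-Nd3 (583, next 192), mt-Ts1 (143.6, next 42.2) and mt-Tc (6.04, next 2.52). These values hold its TMM factor of 0.400, against 1.08 to 1.15 in WT replicates 1 to 3. On total counts it was not the highest WT library for mt-Tc and mt-Atp8. It had 43 and 7523 of their counts in 18.0 M, and WT replicate 3 had 30 and 5576 in 11.2 M. For mt-Co1 it stayed highest, with 203175 counts against 65063 in 10.5 M in WT replicate 5. WT replicate 4 also had the fewest genes with at least 10 counts (8250). Its sums of B cell and Nkg7-led NK and CD8 T cell markers were the highest. The part of the scaling and of these cells in these values was not tested. In WT replicate 1, mt-Nd4l held 0.0139% of mitochondrial mRNA counts, and 0 in the other 4 WT libraries, with its identical copy Gm10222 holding 92.3% of the counts of the pair there and 100% in the others.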

How the results depend on the processing

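In edgeR 0 mitochondrially encoded genes passed under every alternative run, while DESeq2 called 8, all lower in KO. The median log2 change of the members tested was −1.49, and −0.49 on total counts only. Individual signs turned as follows. The log2 change of mt-Rnr2 was 0.34 without WT replicates 4 and 5 and 0.33 with the replicate block. That of mt-Tq was 0.20 on total counts, 0.062 with a filter on a mean of 5 CPM and 0.44 without WT replicates 2 and 3, whose library names begin with FY, and −0.44 to 0.00061 leaving out 1 library. That of mt-Te was 0.42 on total counts and 0.018 with the 5 CPM filter, that of mt-Nd3 0.24 on total counts, that of mt-Ts1 −0.21 with DESeq2 or its size factors, and that of mt-Td −0.17 with the replicate block and −0.80 to 1.27 leaving out 1 library.

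Shares of mitochondrial mRNA counts that were close to equal between groups also turned. With copies added the difference was 0.135 points for mt-Co2 and 0.0114 for mt-Nd4l, and per kb −0.366 for mt-Nd2 and −0.187 for mt-Nd4. Without WT replicates 4 and 5 it was −1.37 for complex I, −2.38 for mt-Nd2, 1.46 for mt-Co2, −0.0581 for mt-Atp8, 0.0251 for mt-Co3 and −0.124 for mt-Nd4. Leaving out 1 library gave −0.426 to 4.21 for complex I, −0.930 to 1.18 for mt-Co2, −1.04 to 0.842 for mt-Nd2, −0.0312 to 2.75 for mt-Nd1, −1.24 to 0.363 for mt-Co3 and −0.262 to 0.643 for mt-Nd4. The ratio to nuclear subunit counts differed by 0.0177 without the FY libraries and by −0.865 to 0.181 leaving out 1 library. The cause of these turns was not tested.

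With the replicate number as a block the median was −0.72, 0 members passed, and 1 of 21 had an unadjusted p under 0.05, against 9.02% of all genes. Without the block 8 of 21 had one, against 14.4%. Replicates 4 and 5 occur only in WT, so under the block they do not inform the change between KO and WT. The block is thus close to the fit without those libraries, where the median was −0.68. Same-numbered libraries correlated at 0.0175 to 0.0466 in their deviations from group means, and differently numbered ones at −0.0650 to 0.0215. So few pairs cannot show whether the numbers mark a pairing. Of the tRNA genes, 15 had too few counts to be tested, and what limits them was not tested.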

Other observations

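The share of a pair's counts assigned to the nuclear copy differed between pairs and libraries. Gm29216 held 31.2, 52.4 and 64.8% of the counts of mt-Co1 and this copy together in KO replicates 1 to 3, and 31.1, 22.4, 33.8, 36.7 and 41.3% in WT replicates 1 to 5. It aligned to 483 of the 1545 bases of mt-Co1, so these are not shares of the common stretch alone. Gm28438 held 56.9, 36.3 and 57.3% of the counts of mt-Nd3 and that copy together in KO libraries, and 41.4, 44.5, 49.9, 62.6 and 23.5% in WT libraries. Gm28661, the copy of mt-Co2, held 8.58% in KO replicate 1 and 9.05% in WT replicate 1, and at most 0.127% in the other 6 libraries. Gm10925, the copy of mt-Atp6, held 2.06% in KO replicate 1 and 2.54% in WT replicate 2, and was at or near 0 elsewhere. All copies together made up 19.8, 17.0 and 21.2% of mitochondrial and copy counts in KO libraries, and 21.2, 22.3, 21.2, 23.2 and 22.5% in WT libraries.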
